A study of Mus musculus with 8 samples.

Results

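The Nr4a genes Nr4a1, Nr4a2 and Nr4a3 encode the orphan nuclear receptors also called Nur77, Nurr1 and NOR1. They were described in mouse retina on 8 Affymetrix expression arrays, 1 retina sample per array, as all probe sets whose only platform gene symbol is one of the 3 names. This gave 3 genes of 18193 with a single symbol, and 10 probe sets of 45037. Nr4a1 was read by 1 probe set, Nr4a2 by 6 and Nr4a3 by 3. The family was chosen from the difference between injected and control retina in these same arrays, so every such difference of an Nr4a gene is a description without a test.

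Injected retina (4 samples) came from eyes given an injection, which the labels describe only as treatment with a compound. Control retina (4 samples) is labelled as fresh tissue, with a time of 0 d. The labels name no compound, dose, route, interval, strain or age, and no group with a sham injection was analysed here, so injection, compound and time cannot be told apart. Nothing in the labels says whether the 4 samples of a group were separate animals, and p-values then measure only the spread between these samples, which may be technical. Because whole retina was measured, fewer cells of a type and less RNA per cell cannot be told apart.

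NR4A receptors are transcription factors whose ligand pocket is filled by bulky side chains, so their activity depends largely on how much of them a cell makes. They are immediate early genes: depolarisation, calcium, cyclic AMP and growth factors induce them without new protein synthesis, in part through the transcription factor CREB, which binds cyclic AMP response elements (CRE) near their start sites. As monomers they bind an element called NBRE, and Nr4a1 and Nr4a2, but not Nr4a3, also pair with the retinoid X receptors. Nr4a2 is best known for the dopaminergic neurons of the midbrain, and in mouse retina it marks a subset of amacrine cells.

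The sequence before each start site is shown because the 3 genes share a feature there that the choice of the family did not use. RefSeq promoter entries (GRCm38.p6) matched 3 of 3 genes. The windows hold the 250 bases before the start and read 5′ to 3′ on the gene's own strand, at chr15:101266596-101266845 (plus strand) for Nr4a1, chr2:57124004-57124253 (minus strand) for Nr4a2 and chr4:48045055-48045304 (plus strand) for Nr4a3. Capitals mark CRE half-sites, the letters TGACG or, for the opposite strand, CGTCA.
Nr4a1: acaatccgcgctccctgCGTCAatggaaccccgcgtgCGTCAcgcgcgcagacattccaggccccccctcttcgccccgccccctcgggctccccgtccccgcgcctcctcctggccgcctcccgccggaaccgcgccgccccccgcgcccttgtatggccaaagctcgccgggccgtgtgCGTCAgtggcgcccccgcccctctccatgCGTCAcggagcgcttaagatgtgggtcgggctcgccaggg
Nr4a2: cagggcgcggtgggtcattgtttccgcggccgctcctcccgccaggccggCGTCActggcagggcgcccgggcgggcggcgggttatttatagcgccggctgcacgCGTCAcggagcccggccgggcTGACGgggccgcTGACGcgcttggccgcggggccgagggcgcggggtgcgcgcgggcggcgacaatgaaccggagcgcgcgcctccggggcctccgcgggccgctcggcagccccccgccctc
Nr4a3: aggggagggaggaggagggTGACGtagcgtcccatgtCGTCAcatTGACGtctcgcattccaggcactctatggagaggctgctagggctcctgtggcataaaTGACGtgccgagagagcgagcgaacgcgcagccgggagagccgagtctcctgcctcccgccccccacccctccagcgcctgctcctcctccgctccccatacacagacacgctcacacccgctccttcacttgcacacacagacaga

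Each of the 3 windows held 4 half-sites. In Nr4a1 all 4 lay on the opposite strand, with first bases at -233, -213, -69 and -40 from the start. Nr4a2 had an opposite-strand pair at -200 and -144 and a gene-strand pair at -123 and -111. Nr4a3 had its 4 half-sites at -231, -213, -205 and -147, of which the one at -213 was on the opposite strand. The annotated Nr4a3 gene begins at base 48045078, inside its window, because RefSeq also has an earlier start. The annotated Nr4a1 gene runs from base 101253902 to 101274795, so the whole Nr4a1 window lies inside it, before a later start.

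Half-sites this dense were uncommon among promoters. Of 32851 windows of the same length (27025 genes), 17.8% held at least 1 half-site, 3.9% at least 2 and 0.137%, or 45 windows, at least 4. The 3 Nr4a windows are among these 45, and the cut at 4 was taken from their own count. The Nr4a windows were rich in G and C (74.4%, 80.0% and 63.6% in Nr4a1, Nr4a2 and Nr4a3). Among the 9178 windows with at least 60% G and C, 0.37% held 4 or more, the 3 Nr4a windows included. No window of the 3 contained the full palindrome TGACGTCA (present in 1.55% of windows, each copy counting as an overlapping half-site on both strands), the NBRE letters AAAGGTCA on either strand (1.34%), or a CArG box, the element of serum response factor (1.47%). These are matches of letters, and factor binding was not measured.

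**Figure D1:**
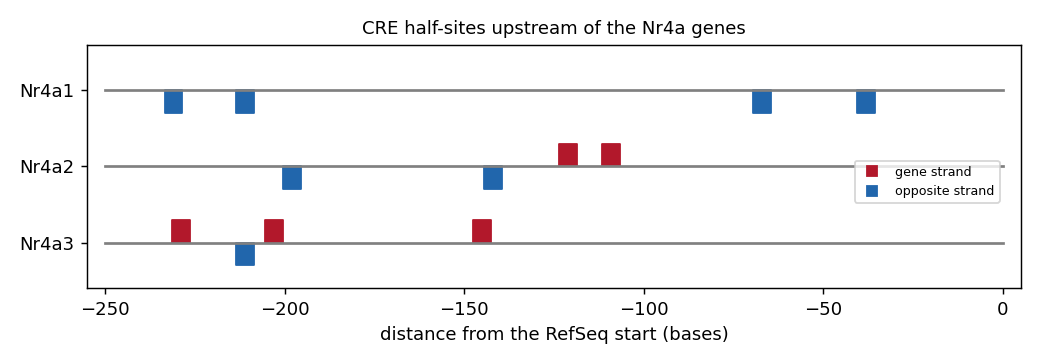
Positions of CRE half-sites (TGACG, both strands) in the 250 bases before a RefSeq start of each Nr4a gene; the x axis is the distance from that start in bases. Boxes above a line are on the gene strand and boxes below it on the opposite strand; each gene has 4.

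Each array gave a linear intensity for every probe set. Intensities were quantile-normalised between arrays and are given as log2(intensity + 16), which understates changes of dim probe sets. Only probe sets whose mean log2 level reached the 40th percentile, a floor of 8.50, were tested. Of the 10 Nr4a probe sets, 6 passed: 1 for Nr4a1, 4 for Nr4a2 and 1 for Nr4a3. The Nr4a3 probe set passed through the control group, where it is high.

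Array quality and tissue content differed between arrays. Array medians of deposited intensity ran from 519 to 766 in injected and from 495 to 584 in control samples. The ratio of the 3′ to the 5′ Gapdh control probe set, a sign of RNA integrity, ran from 5.26 to 8.82 in injected and from 3.36 to 4.68 in control arrays, without overlap (exact two-sided permutation p = 0.0286, which no split of these arrays can go below; adjusted over 15 array measures 0.107). The Actb ratio overlapped (43.3 to 59.7 in injected, 39.2 to 57.2 in control; exact two-sided permutation p = 0.486). Injected replicate 3 had the lowest array weight in limma, 0.191, against 0.646 to 1.83 on the others. Group means of every retinal neuron marker class were lower in injected arrays, with or without overlap. The mean log2 level of 6 rod markers overlapped, at 13.80 to 14.69 in injected and 14.52 to 14.71 in control arrays. That of 5 bipolar markers overlapped too, with a difference of -0.57 (exact two-sided permutation p = 0.0571). So did that of 8 amacrine and horizontal cell markers, with a difference of -0.23 (exact two-sided permutation p = 0.114). That of 7 cone markers was 11.26 to 12.47 in injected and 12.79 to 12.89 in control arrays, and that of 6 ganglion cell markers 12.79 to 12.97 in injected and 13.10 to 13.22 in control arrays, both without overlap (exact two-sided permutation p = 0.0286 each, adjusted 0.107). Among single markers, the blue cone opsin gene Opn1sw differed by -2.07 ± 0.51, the pigment epithelium isomerase gene Rpe65 by -3.02 ± 0.73 and the leukocyte gene Ptprc by 1.13 ± 0.28 (SE; limma adjusted p = 0.517, 0.513 and 0.513), each without overlap. Groups overlapped for the ganglion cell genes Pou4f1 (-0.14) and Thy1 (-0.088) and the Müller glia gene Rlbp1 (-0.37). Of 10 listed pigment epithelium markers 8 were tested, and their mean was 10.04 to 11.92 in injected arrays, against 11.11 to 13.97 in controls, the last in control replicate 2. Of 10 listed microglia and leukocyte markers 8 were tested, with means of 11.69 to 12.56 in injected arrays and 11.02 to 11.64 in controls, without overlap. Of 9 listed lens markers 5 were tested, with means of 9.68 to 13.02 in injected and 6.79 to 10.09 in control arrays. The part of these measures in the Nr4a values and in those of the gene lists was not tested.

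Nr4a3, whose product binds DNA without a retinoid X receptor partner, had the lowest injected signal relative to control among members, at highest-mean probe sets. At its brightest probe set, 1438796_at, the log2 level was 7.48, 9.05, 6.46 and 6.98 in injected replicates 1 to 4, and 10.16, 10.30, 11.11 and 11.02 in control replicates 1 to 4. The groups did not overlap, and 3 of the 4 injected values lay below the floor of 8.50, so the injected level is dim. Group means were 7.49 ± 1.12 in injected and 10.65 ± 0.49 in control retina (SD, n = 4 each), a difference of -3.15 log2 units, or an injected level 0.112 times that of control. Only 1 of the 45037 probe sets had a lower difference. Nothing is read from this rank, because the family was chosen on this contrast. On the deposited scale the intensities were 153, 446, 97.1 and 144 in injected, against 1131, 1208, 2215 and 1974 in control arrays. Leaving out any single array gave differences from -3.66 to -2.85.

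The other 2 Nr4a3 probe sets, 1421080_at and 1421079_at, did not share that direction. In the platform annotation both are listed with one shared source sequence and 1438796_at with another. Both lay below the floor. Probe set 1421079_at had log2 levels of 6.62, 7.13, 6.64 and 5.69 in injected, against 4.82, 4.83, 4.97 and 5.14 in control arrays. Here the groups also did not overlap, but the injected arrays were the higher ones, by 1.58 log2 units. Its deposited intensities were 74.5, 103, 110 and 47.2 in injected and 10.4, 11.7, 14.2 and 14.4 in control arrays. Probe set 1421080_at had log2 levels of 6.14, 6.35, 7.72 and 6.24 in injected and 5.95, 6.03, 6.43 and 5.75 in control arrays, and its groups overlapped, with a difference of 0.57. That difference was 0.20 without injected replicate 3, the highest array. At 1421079_at it ran from 0.85 to 2.27 with pseudocounts of 64 and 1.

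The mean of the 3 probe sets on the log2 scale differed by -0.33, against -3.15 at 1438796_at alone. That mean was closer to control than the Nr4a1 difference of -0.52, so the order of the members depends on the probe sets read. Which transcripts each probe set binds is not given in the sources used here.

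**Figure D2:**
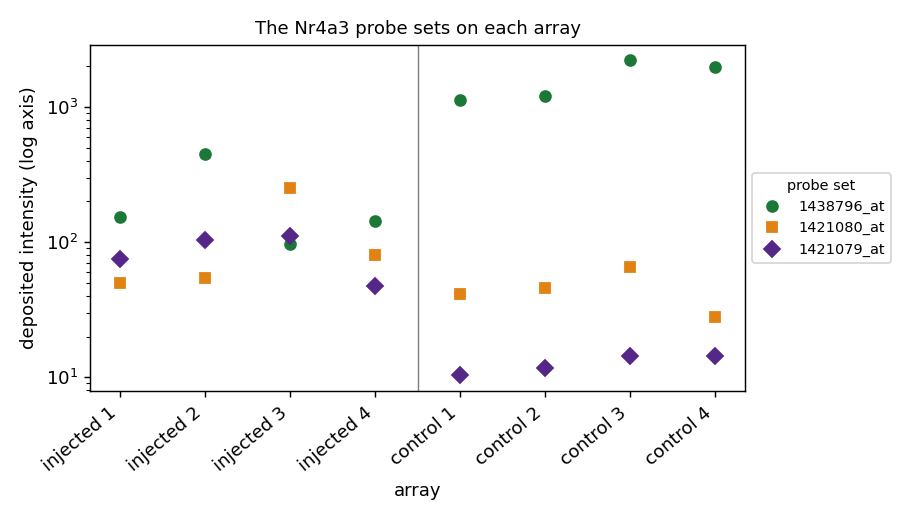
Deposited intensity (log axis) of the 3 Nr4a3 probe sets on each of the 4 injected and 4 control arrays, 1 point per array. Probe set 1438796_at lies between 97.1 and 446 in injected and between 1131 and 2215 in control arrays, while 1421079_at lies between 47.2 and 110 in injected and between 10.4 and 14.4 in control arrays.

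Nr4a1, an early gene that in thymocytes and macrophages answers receptor stimulation, had 1 probe set, 1416505_at, well above the floor. Its log2 level was 11.23, 11.37, 11.84 and 10.86 in injected replicates 1 to 4, and 11.98, 11.19, 11.90 and 12.29 in control replicates 1 to 4. The groups overlapped through control replicate 2 alone, which lay below 3 of the 4 injected arrays and was also the array with the highest pigment epithelium markers. Means were 11.32 ± 0.40 in injected and 11.84 ± 0.46 in control retina (SD, n = 4 each), a difference of -0.52 log2 units. Without control replicate 2 it was -0.73, and without control replicate 2 and injected replicate 3 together -0.92.

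Nr4a2, the receptor of dopaminergic neurons, had the highest-mean probe set 1455034_at. Its log2 level was 12.78, 13.23, 11.80 and 12.44 in injected replicates 1 to 4, and 12.78, 12.63, 12.89 and 13.16 in control replicates 1 to 4. Injected replicate 3 was the lowest array and injected replicate 2 the highest, so the control range lay inside the injected range. Means were 12.57 ± 0.60 in injected and 12.87 ± 0.22 in control retina (SD, n = 4 each), a difference of -0.30. Without injected replicate 3 it was -0.049.

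The 5 other Nr4a2 probe sets had differences between -0.41 and 0.092, and all 6 had overlapping groups. Probe set 1447863_s_at, whose suffix marks probes that can bind related transcripts, differed by -0.34, with log2 levels of 10.79, 10.87, 11.13 and 10.95 in injected and 11.55, 11.03, 11.34 and 11.16 in control arrays. At 1450750_a_at injected replicate 3 was the highest of all arrays (11.02), the reverse of its place at 1455034_at, and the difference was 0.037. Probe sets 1433422_at and 1450749_a_at differed by 0.092 and 0.038. The dim 1433423_at differed by -0.41, with 5.57 in injected replicate 3 and 6.51 in control replicate 1 against 8.07 or more on the others.

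Over the family, 5 of the 10 probe sets were below control in mean and 5 above. Injected arrays lay below all controls at 1 Nr4a probe set and above all controls at 1. Over all probe sets the shares were 2.09% lower and 2.18% higher without overlap. Nothing is read from these counts, because the family was chosen on this contrast.

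**Figure D3:**
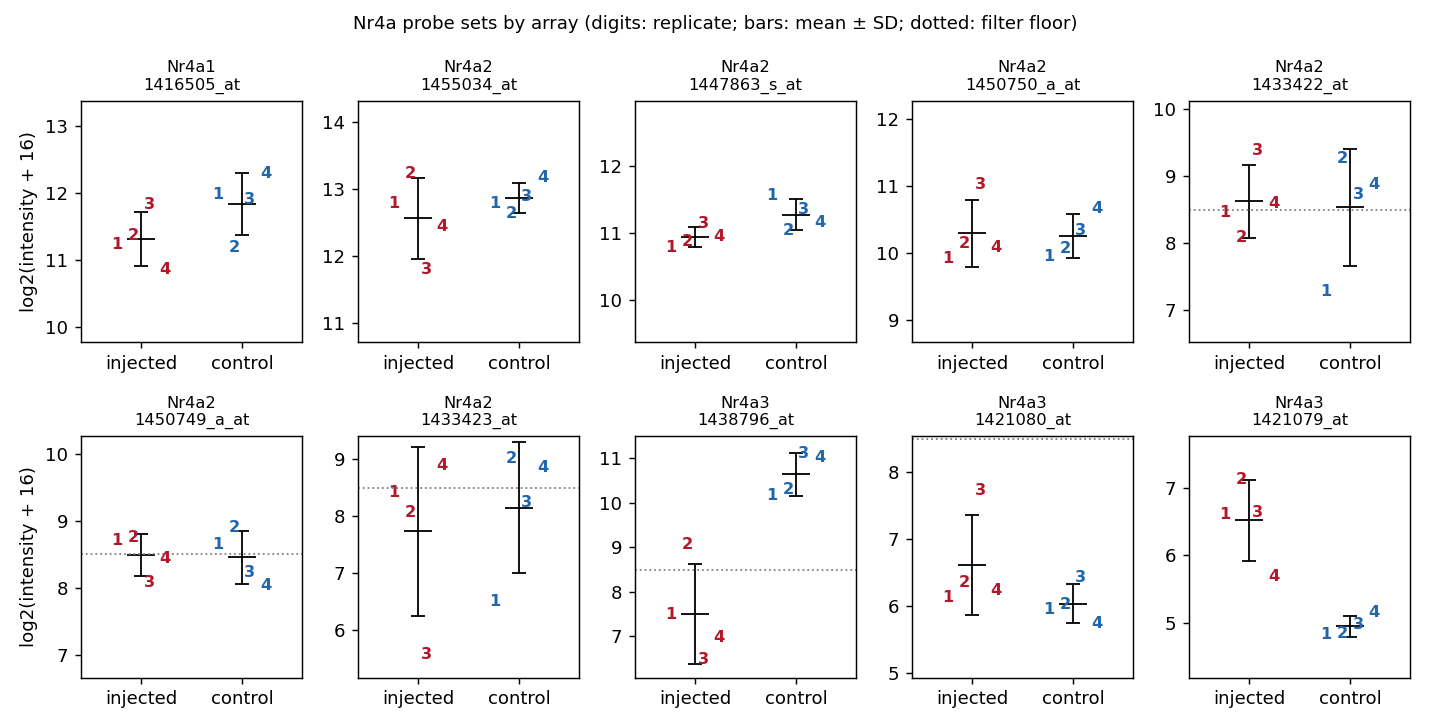
Log2(intensity + 16) of the 10 Nr4a probe sets, injected arrays left and control arrays right in each panel; digits are replicate numbers, bars are mean ± SD (n = 4) and the dotted line is the filter floor of 8.50 where it falls in the panel. Each y axis has its own position. The groups separate at 1438796_at (injected lower) and 1421079_at (injected higher) and overlap at the other 8.

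Sample-to-sample variation inside each group is described next, without a test, because Nr4a3 enters it through its control level and 3 of its 4 injected values lie below the floor. Deviations from the own group mean were compared over the 8 arrays at the highest-mean probe set of each gene. Read at these probe sets, Nr4a2 and Nr4a3 had the highest of the 3 pairwise values, with Pearson's r = 0.906 and Spearman's rho = 0.857. Over the 4 injected arrays r was 0.932 and over the 4 control arrays 0.754. In injected replicate 2 both genes were highest, Nr4a2 by 0.67 and Nr4a3 by 1.56 above the injected mean, and in injected replicate 3 both were lowest, at -0.76 and -1.03. Without these 2 arrays r was 0.711, and leaving out any single array gave 0.840 to 0.932. Injected replicates 2 and 3 also had the lowest and the highest Gapdh ratio of the injected arrays (5.26 and 8.82), and the part of RNA integrity was not tested. At the other tested Nr4a2 probe sets injected replicate 3 was instead the highest injected array. Its log2 level was 11.13 at 1447863_s_at, 11.02 at 1450750_a_at and 9.37 at 1433422_at. At 1450749_a_at and 1433423_at, both below the floor, it was the lowest injected array, at 8.07 and 5.57. The r of Nr4a3 with these Nr4a2 probe sets was not computed, so the relation is shown for the highest-mean probe sets only.

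For Nr4a1 the value depended on single arrays. Its r was -0.0455 with Nr4a2 (rho = 0.0476) and 0.0565 with Nr4a3 (rho = -0.0952). With Nr4a2 it was -0.45 over the 4 injected and 0.878 over the 4 control arrays, and with Nr4a3 -0.165 over injected and 0.518 over control arrays. Without control replicate 2 and injected replicate 4, where Nr4a1 was farthest from its median, r was -0.559 with Nr4a2 and -0.454 with Nr4a3. Without injected replicate 3 the r with Nr4a2 was 0.779, and without that array and control replicate 2 it was 0.907, as high as that of Nr4a2 with Nr4a3. These 3 relations share the same arrays.

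**Figure D4:**
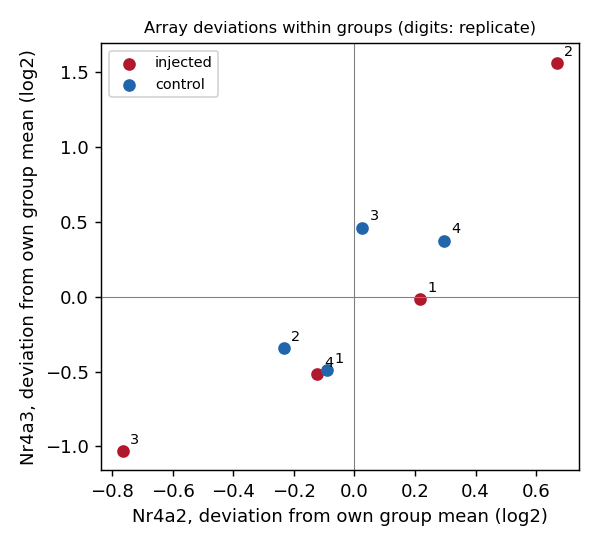
Deviation of each array from its own group mean (log2 units) for Nr4a2 at 1455034_at (x axis) and Nr4a3 at 1438796_at (y axis); digits are replicate numbers. Injected replicate 2 is highest and injected replicate 3 lowest at both of these probe sets.

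The genes most like each member in these within-group deviations were taken as the 5 highest r among 12885 other tested genes over 8 arrays. For Nr4a1 they were Ebf2 (r = 0.955), B3galt6 (0.953), Nop9 (0.951), Zfp128 (0.951) and Uvrag (0.947). For Nr4a2 they were Ttc30a1 (r = 0.991), Gt(ROSA)26Sor (0.989), Iws1 (0.985), Ipp (0.985) and Iars (0.982). For Nr4a3 they were Itsn2 (r = 0.992), Zfp729a (0.965), Abhd3 (0.963), Kdm7a (0.961) and Dmxl2 (0.960). Read at 1455034_at, Nr4a2 stood at percentile 99.5 for Nr4a3, and Nr4a3 at percentile 98.2 for Nr4a2. Over 37 immediate early genes the median r was -0.090 for Nr4a1, 0.16 for Nr4a2 and 0.095 for Nr4a3, against -0.031, -0.014 and 0.010 over all genes. Klf10, an early Krüppel-like factor, had the highest r of that list with Nr4a2 (0.959) and with Nr4a3 (0.841). So many genes over so few arrays give high values by selection, and without control replicate 2 and injected replicate 3 together 0 of the 5 were the same for each member.

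The other genes around the family were read from 6 lists of 235 genes, each gene at its tested probe set with the highest mean, and tested with limma across all probe sets. After Benjamini-Hochberg adjustment 0 of 27022 probe sets passed (0% called), with 1889 at an unadjusted p under 0.05, while limma with array weights called 8. The background at an unadjusted p under 0.05 was 2.91% of the 12886 tested genes lower and 3.77% higher in injected retina, with a median difference of -0.011. This split depends on scaling: 43.6% of such genes were lower in the quantile-normalised values, 31.8% with the deposited scaling and 67.9% after centring on array medians, which moved the median of all genes by -0.16. Relative to that median, the 3 scalings gave -3.14, -3.05 and -3.03 for Nr4a3, -0.51, -0.57 and -0.57 for Nr4a1, and -0.29, -0.36 and -0.36 for Nr4a2.

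Immediate early genes, induced by the same stimuli as the Nr4a genes, held 8 genes that were lower in injected retina before adjustment. Of 49 listed genes 37 were tested; at an unadjusted p under 0.05, 8 were lower (21.6%, against 2.91% of all tested genes) and 2 higher (5.41%), 27 passed in neither direction, and 0 passed after adjustment by limma. The list median was -0.26 log2 units, against -0.011 over all tested genes. This list, like the others, was chosen with earlier results of these data known. Beside these counts stand the higher Gapdh 3′ to 5′ ratio (5.26 to 8.82 in injected, 3.36 to 4.68 in control arrays), the higher microglia and leukocyte markers and the lower cone and ganglion cell markers given above. The lower count was 7 to 11 over all alternatives, and 7, 8 and 9 with the deposited scaling, the quantile-normalised values and median centring.

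Egr1, a zinc finger factor of the early response, had log2 levels of 13.65, 13.52, 14.00 and 14.15 in injected and 15.02, 14.73, 15.08 and 15.06 in control arrays. Dusp1, a phosphatase that inactivates MAP kinases, had 12.40, 11.92, 11.69 and 12.75 in injected and 13.76, 13.35, 13.70 and 13.45 in control arrays. Egr1 and Dusp1, and also Dusp4 and Egr3 below, were lower on every injected array than on any control array. Dusp4, a nuclear relative of Dusp1, had 11.25, 10.77, 10.55 and 11.39 in injected and 12.27, 12.17, 12.61 and 12.79 in control arrays. Egr3, a relative of Egr1 that takes part in neuronal activity responses, had 8.90, 9.88, 7.91 and 9.11 in injected and 10.21, 10.79, 10.60 and 11.18 in control arrays. Their differences were -1.14 ± 0.20 for Egr1, -1.38 ± 0.26 for Dusp1, -1.47 ± 0.25 for Dusp4 and -1.75 ± 0.39 for Egr3 (SE; limma adjusted p from 0.318 to 0.476). Egr3, like Nr4a3, had a dim second probe set of opposite sign, 1421486_at, at 0.79.

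The other 4 genes lower at this level were Fos (-0.78), the clock gene Per1 (-1.11), Klf4 (-0.83) and Ier2 (-0.79), and the 2 higher were Jun (0.55) and the prohormone convertase gene Pcsk1 (0.89). These 6 are named after their values were seen. Of the 35 listed early genes with a RefSeq promoter entry, 13 (37.1%) held at least 2 CRE half-sites in the window, against 4.46% of all genes. Among them 3 (Dusp1, Homer1 and Pcsk1) held 3, and 0 held 4 as the Nr4a genes did. Each gene was read at its entry with the most half-sites. A full palindrome counts as 2 half-sites here, and G and C content was not matched.

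Upstream regulators of the Nr4a genes, namely CREB and its CRTC partners, protein kinase A, calcium-dependent kinases, calcineurin, MEF2 and MAP kinase factors, gave few calls. Of 50 listed genes 41 were tested, 1 was lower (2.44%) and 2 higher (4.88%) at an unadjusted p under 0.05, 0 passed after adjustment, and the median was -0.11. Crtc3, a coactivator of CREB, had log2 levels of 11.31, 11.40, 11.81 and 11.85 in injected and 10.74, 11.05, 10.86 and 10.84 in control arrays, a difference of 0.72 ± 0.19 (SE; limma adjusted p = 0.552) without overlap. Camk4, a kinase that phosphorylates CREB, differed by -0.48 ± 0.17 and Camk2a by 0.74 ± 0.30, and each had at least 1 other tested probe set of the opposite sign. Mef2c, of the MEF2 family that drives Nr4a1 in T cells, differed by -0.40 ± 0.19, and its 5 tested probe sets ran from -0.79 to -0.28.

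Partners and coregulators of the NR4A proteins had 26 of 34 genes tested, with 3 lower (11.5%), 1 higher (3.85%), 0 past adjustment and a median of -0.16. Cdkn1c, a cell cycle inhibitor that binds Nr4a2 in dopaminergic cells, had log2 levels of 10.52, 10.31, 10.32 and 9.96 in injected and 10.85, 11.22, 10.83 and 10.69 in control arrays, a difference of -0.62 ± 0.20 (SE; limma adjusted p = 0.625). The coactivator Ncoa3 differed by -0.93 ± 0.34, the corepressor Tle1 by -0.83 ± 0.32 and the SUMO ligase Pias4 by 1.09 ± 0.45. For Ncoa3 and Tle1 a second tested probe set was closer to 0, at -0.13 and -0.09. Leaving out control replicate 1 brought the lower count to 1.

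Of 46 other genes of the nuclear receptor superfamily 28 were tested, 0 were lower and 0 higher at an unadjusted p under 0.05 by limma, and differences ran from -0.61 to 0.22 with a median of -0.13. The smallest p belonged to Rxrb, a retinoid X receptor that pairs with Nr4a1 and Nr4a2, at -0.41 ± 0.20 (SE; limma adjusted p = 0.725). The orphan receptors Nr2f1 and Nr2f2 differed by -0.35 ± 0.19 and -0.61 ± 0.35. Rora, an orphan receptor of the clock and of cone opsin expression, differed by -0.32 ± 0.20, and all 6 of its tested probe sets were below control. Whether these differences differ from that of Nr4a3 was not tested.

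Genes reported as NR4A targets in adrenal, liver, muscle and immune cells had 19 of 43 tested, with 0 lower, 0 higher and a median of 0.14. Lpin1, a phosphatidate phosphatase, differed by -0.72 ± 0.40 and the neuropeptide gene Vip by 0.48 ± 0.33 (SE; limma adjusted p = 0.735 and 0.75). Both stood apart on injected replicate 3, without which Lpin1 differed by -0.28 and Vip by 0.83, with Vip then past the unadjusted threshold of 0.05 by limma. A second Lpin1 probe set was at 0.0032. The steroid hydroxylase Cyp11b1 differed by -0.27 ± 0.19 and muscle glycogen phosphorylase, Pygm, by -0.32 ± 0.25.

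Dopaminergic amacrine genes, several of them Nr4a2 targets in midbrain, had 14 of 20 tested, with 1 lower (7.14%), 1 higher (7.14%), 0 past adjustment and a median of -0.15. Th, tyrosine hydroxylase and the rate-limiting enzyme of dopamine synthesis, had log2 levels of 8.69, 8.42, 9.96 and 8.96 in injected and 8.90, 8.77, 7.40 and 7.29 in control arrays. The groups overlapped, several values lay near or below the floor, and the difference was 0.92 ± 0.46 (SE; limma adjusted p = 0.725). The dopamine receptor gene Drd2 differed by -0.61 ± 0.22, the repressor Bcl6 by 0.57 ± 0.25 and the neurotrophic factor receptor Gfra1 by -0.60 ± 0.35. Bcl6 had a second tested probe set at -0.17.

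**Figure D5:**
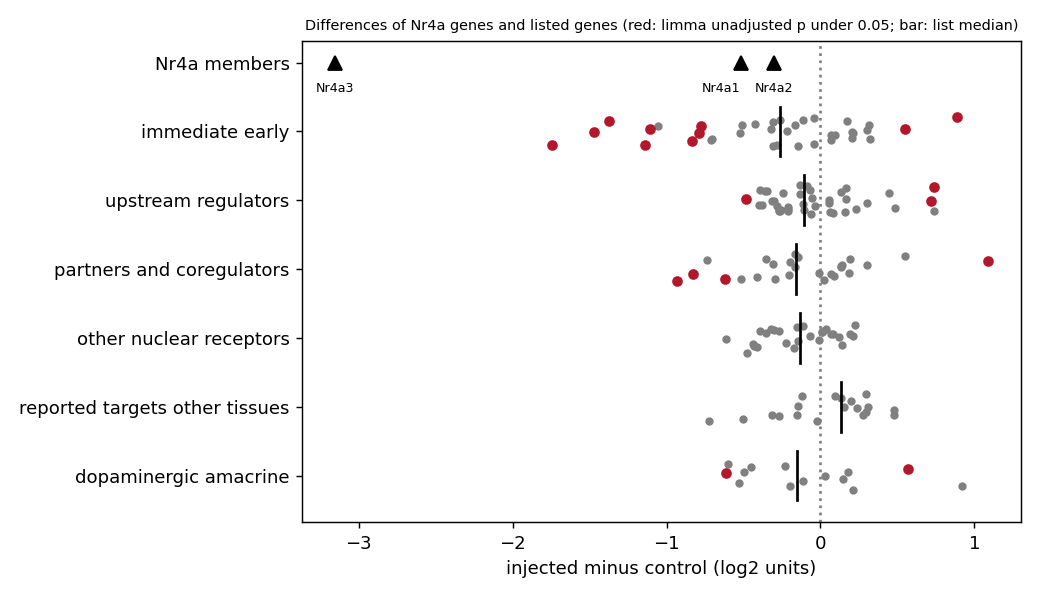
Injected minus control difference (log2 units) of the 3 Nr4a genes at their highest-mean probe sets (triangles) and of the genes of 6 lists (points, red where the limma unadjusted p is under 0.05; vertical bars are list medians). Nr4a3 lies at -3.15, outside the range of every list, but the family was chosen on this contrast, so nothing is read from that position. The mean over its 3 probe sets is -0.33. The red points of the immediate early list are mostly on the lower side.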

How the data were processed

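Linear intensities per probe set, deposited by the authors in 1 table of 45101 probe sets and 8 arrays, were used. Per-array means, trimmed by 2% at each end, were all 2500, as global scaling gives; the software is not given in the sources used here. The 64 array control probe sets served only as quality measures. Of the other 45037, 34945 had 1 gene symbol in the platform annotation, 932 several and 9160 none.

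The highest array median was 1.55 times the lowest, so the intensities were put on the log2(intensity + 16) scale after quantile normalisation with limma 3.58.1 under R 4.3.3. The 27022 probe sets at or above the 40th percentile of the mean entered lmFit and eBayes, and p-values were adjusted by Benjamini-Hochberg with a threshold of 0.05. The number of arrays limits the precision. The fit was tested on simulated data. Figures used matplotlib 3.10.9 in Python 3.11.15.

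The members, lists and tests were chosen with earlier results of these data known. Named genes were every Nr4a probe set, the 4 smallest p of each list, the 5 nearest genes of each member and fixed cell markers. Array measures were tested over the 70 assignments of arrays to groups. Alternatives were pseudocounts of 1 and 64, no filter, deposited scaling, median centring, a trended prior, array weights, a replicate block, other probe sets, and leaving out arrays. Deviations from the own group mean correlated at -0.03 to 0.08 between same-numbered arrays, so the numbers were not treated as pairs.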

Additional observations from a re-analysis of the deposited data

Results flagged for a closer look

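In 3 of 110 groups of 4 arrays examined (2.73%), 1 array stood far from the other 3; chance gives about 1 in 20. All 3 concerned injected replicate 3. At the dim Nr4a3 probe set 1421080_at it had a log2 level of 7.72, against 6.14 to 6.35 on the other injected arrays. Lpin1 was at 9.62 there, against 11.35 to 11.46. Vip was at 13.08, against 14.37 to 14.60. The cause was not tested.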

How the results depend on the processing

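The differences of Nr4a1, Nr4a2 and Nr4a3, read at their highest-mean probe sets, stayed below control in all 16 alternatives each. For Nr4a3 these include the mean over all its probe sets, which moved it to -0.33. The 2 other Nr4a3 probe sets stayed above control in all 15 of their alternatives. With 1 array of each group per block, the replicate block cannot move the differences. It called 0 probe sets after adjustment. It ended the higher call of 1 gene each in the dopaminergic (0) and partner (0) lists, and the labels do not say that the numbers pair the samples. The number of probe sets past adjustment was 8 with array weights and 0 to 34 when 1 array was left out, with 34 only without injected replicate 4.

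List medians after centring on array medians were -0.37 (immediate early), -0.29 (upstream), -0.26 (partners), -0.24 (other receptors), -0.078 (reported targets) and -0.31 (dopaminergic). With array weights the upstream and partner medians were -0.021 and -0.017. With no filter the receptor and partner medians were -0.030 and -0.030. With the smallest-p probe set the reported-target and dopaminergic medians were -0.24 and -0.34. Without control replicate 2 and injected replicate 3 together the partner and dopaminergic medians were -0.038 and 0.032. Leaving out 1 array gave medians of -0.17 to -0.039 (upstream), -0.24 to -0.054 (partners), -0.21 to -0.034 (other receptors) and -0.028 to 0.22 (reported targets).

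Small counts at an unadjusted p under 0.05 also moved. Immediate early genes higher were 1 with median centring, no filter, a trended prior, or without control replicate 2 and injected replicate 3 together, and 1 to 3 with 1 array left out. Upstream genes higher were 1 with array weights, no filter or those 2 arrays left out, 4 with the smallest-p probe set and 1 to 3 with 1 array left out. Upstream genes lower were 3 with median centring or the smallest-p probe set, 2 with the deposited scaling or a trended prior and 1 to 2 with 1 array left out. Partners higher were 0 with array weights or those 2 arrays left out and 0 to 1 with 1 left out. Partners lower were 1 without those 2 arrays and 1 to 4 with 1 left out. Other receptors lower were 1 with array weights or without those 2 arrays, 2 with median centring, 3 with the smallest-p probe set and 0 to 1 with 1 array left out. Reported targets higher were 1 with array weights or no filter, 2 without those 2 arrays and 0 to 1 with 1 left out; 1 was lower without those 2 arrays. Dopaminergic genes higher were 0 with median centring, the deposited scaling, a pseudocount of 1 or without those 2 arrays, and 0 to 1 with 1 left out. Dopaminergic genes lower were 2 with array weights or the smallest-p probe set, 0 with the deposited scaling and 0 to 1 with 1 array left out. Between Nr4a1 and Nr4a2, r was 0.907 without those 2 arrays and -0.31 to 0.779 with 1 left out. The causes were not tested. Signal near the floor limits the 2 dim Nr4a3 probe sets and the injected level of the brightest.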
